A study of Saccharomyces cerevisiae with 12 samples.

Results

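Nucleosome positions in a yeast strain carrying Ioc3-Q251K/D252K were compared with those in wild-type yeast. Both strains were Saccharomyces cerevisiae BY4741, a haploid laboratory strain, grown at 30 C in rich medium (YPD) to mid-log phase. In the mutant, a glutamine and the aspartate beside it in Ioc3 were replaced by lysines, and no other allele is given in the labels for either group. Chromatin was cut with micrococcal nuclease (MNase), which spares DNA wrapped on nucleosomes, and the DNA that was left was sequenced. The labels name enzyme concentrations of 600, 1200 and 2400 gel units per ml but not which group had which. Each group's 2 biological replicates were joined by the authors in 1 position list, so 1 Ioc3-Q251K/D252K list was set against 3 wild-type lists (WT1, WT2 and WT3). The spread within the mutant was therefore not measured, and the tests below take the spread between the wild-type lists in its place. The series also holds an Ioc3-R739E/R742E list and a list of an IOC3 knockout, Ioc3-KO.

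The nucleosomes described are 75968 of the 76986 entries of the Ioc3-Q251K/D252K list, of 460382 entries in the 6 lists of the series. They are all entries on nuclear chromosomes outside chromosome IV 880000 to 988000 (sacCer3), a segment left out because reads were raised there in this mutant. The same rule kept 75361, 75063 and 75280 entries in WT1, WT2 and WT3. The Ioc3-Q251K/D252K entries held 10162836 reads, against 10203383 in WT1, 10185762 in WT2 and 10187250 in WT3. The median entry had 134 reads in the mutant, against 137, 139 and 138. A nucleosome was tested where the mutant summit and the summit of each wild-type list were each other's nearest within 70 bp, which held for 68976 nucleosomes, or 90.8% of the mutant entries, after 4 without a standard deviation were left out.

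Ioc3 is a subunit of ISW1a, a chromatin remodeler of the ISWI family whose ATPase is Isw1. Remodelers of this family slide nucleosomes along DNA without evicting them and set regular distances between neighbours. In budding yeast, genes typically start beside a nucleosome-depleted region, from which a regular array runs into the gene. The first nucleosome of that array is called +1 and the one on the far side of the depleted region -1. Here 2294 of 6002 genes had a depleted region by which their nucleosomes could be numbered.

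The mutant list held entries and reads at the IOC3 locus. IOC3 (YFR013W, chromosome VI, 169922 to 172285) held 16 entries and 2228 reads in Ioc3-Q251K/D252K, against 16, 16 and 18 entries in the wild-type lists, which held 2392, 2426 and 2570 reads. A substitution of 2 residues leaves no trace in such a list, so this does not check the genotype.

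The comparison of Ioc3-Q251K/D252K with wild type asked first whether nucleosomes lay elsewhere. Along the numbered genes, the +2 and +3 nucleosomes of the mutant lay slightly further into the gene than in each wild-type list. From +8 to +10 the mutant medians were below 0, at p = 0.5 in the exact permutation test described next. Both +2 (2131 genes) and +3 (2081 genes) had a median shift of 1.33 bp downstream, and +4 (1917 genes) one of 1.0 bp. The +1 and +5 nucleosomes had a median of 0.333 bp, those at -1 and +6 of -0.333 bp, and those at -2 of -1.0 bp. Further into the gene the medians reached -0.667 bp (+7), -1.33 bp (+8), -1.67 bp (+9) and finally -2.0 bp (+10, 722 genes).

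At +2, WT1, WT2 and WT3 set against the remaining wild-type lists had median shifts of 0.5, -0.5 and 0.0 bp. The mutant median lay outside them at +2 and at +3, with p = 0.25 in an exact two-sided permutation test of 1 list against 3, which is the smallest p this design allows (0.75 after Benjamini-Hochberg adjustment over the 12 numbers). From +8 to +10 the exact permutation p was 0.5 at each number, and WT2 set against the other wild-type lists had 1.5, 2.5 and 1.5 bp at +8, +9 and +10. Leaving out WT2 brought the mutant medians to 0 bp (+7), -0.5 bp (+8), -1.0 bp (+9) and -1.5 bp (+10). At +2, 66.3% of genes had the nucleosome downstream in Ioc3-Q251K/D252K, against 52.8%, 41.2% and 44.0% for WT1, WT2 and WT3 relative to the other wild-type lists. A difference of 0 bp counted as not downstream. The mutant was set against the mean of all wild-type lists, so its share and the wild-type shares are not measured quite alike.

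**Figure D1:**
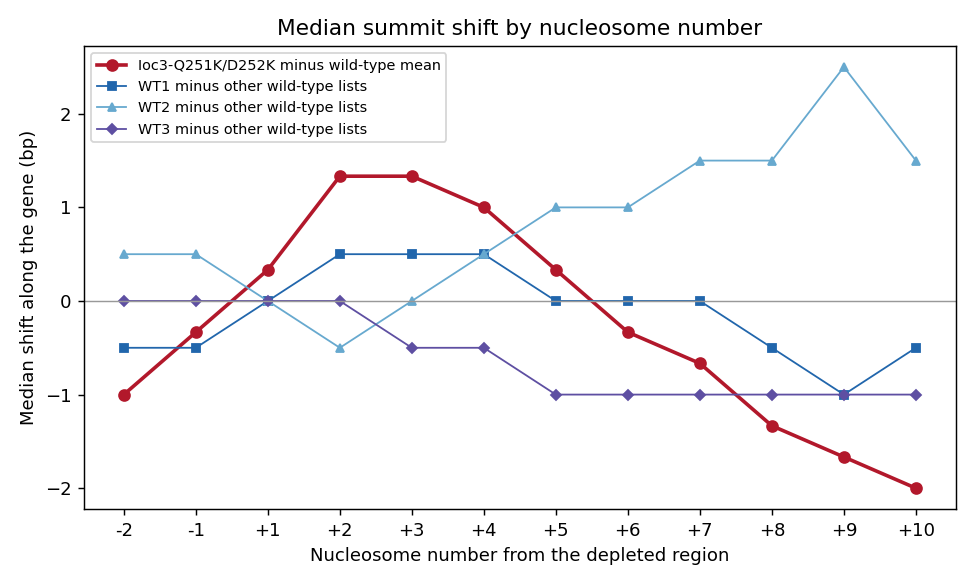
Median shift of the nucleosome summit along the gene in bp (y axis, positive downstream) by nucleosome number (x axis). Red circles are Ioc3-Q251K/D252K minus the wild-type mean, and the blue and purple symbols are each wild-type list minus the other wild-type lists; the mutant lies at 1.33 bp at +2 and +3, above every wild-type list, and at -2.0 bp at +10.

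Genes were then split by the type of their promoter and by length, a split added after the medians had been seen. At +2 the median was 1.33 bp in divergently transcribed genes (1114) and 1.33 bp in tandem genes (1014). It was 1.67 bp in genes over 1519 bp long, 1.33 bp in those of middle length and 1.0 bp in those under 876 bp. At +4, long genes minus short genes came to 1.67 bp in the mutant, against 0.5, 0.5 and -0.5 bp for WT1, WT2 and WT3, each relative to the other wild-type lists (exact permutation p = 0.25, the smallest possible). At +5 it was 1.33 bp in the mutant, against 0, 0.5 and 0 bp (exact p = 0.25). The mutant had 0.667 bp at +2 and at +3, where WT2 had 0.5 and 1.0 bp relative to the other wild-type lists. The exact permutation p was 0.5 at each. In that test each list is set against the 3 others, mutant included, and WT1 at +2 and WT3 at +3 then had -0.667 bp. No length class can be told from the others at a lower p in this design.

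Single nucleosomes gave no position call. In limma, 0 of 68976 nucleosomes passed an adjusted p of 0.05 (0% called), while 5846 had an unadjusted p under 0.05. In fits against 2 wild-type lists, which have 1 residual degree of freedom, the mutant had 6257, 7238 and 6082 at that unadjusted level (without WT1, WT2 and WT3). Wild-type lists fitted in the same form had 4581 (WT1), 6146 (WT2) and 4534 (WT3), and 0 were called in each of these fits. The smallest adjusted p was 0.102, shared by 79 nucleosomes with shifts of 40.3 to 69.0 bp. With 2 residual degrees of freedom this fit could miss large shifts, so the count of 0 does not show that no nucleosome moved.

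Among those not called, the +4 nucleosome of PRE1, which encodes a subunit of the 20S proteasome, had its summit at 178368 on chromosome V in Ioc3-Q251K/D252K, against 178300, 178299 and 178298 in the wild-type lists. This summit lay 69.0 bp further downstream (SE 1.76, limma adjusted p = 0.102). FRE4, a ferric reductase gene, had a coding nucleosome at 740396 on chromosome XIV in the mutant, against 740461, 740460 and 740461 (64.7 bp upstream). In STT4, which encodes a phosphatidylinositol 4-kinase, a summit lay at 740421 on chromosome XII in the mutant, against 740480, 740480 and 740479 (58.7 bp downstream). The wild-type lists placed these nucleosomes within 2 bp of each other, and the mutant list lay outside them each time. Both follow from how the sites were picked, so neither is evidence of a shift. A mutant summit outside the wild-type range was required, and a small p favours sites where the wild-type lists lie close together. YSW1 (59.0 bp upstream), the -1 nucleosome of MRX12 (53.0 bp downstream) and the +1 nucleosome of YLR225C (59.7 bp upstream) had the same adjusted p. The last had 25 reads in the mutant, against 20, 19 and 29, and is also the -1 nucleosome of BUR2, a cyclin gene.

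Over all tested nucleosomes, 66.1% lay within 5 bp of the wild-type mean in Ioc3-Q251K/D252K. Against pairs of wild-type lists, so that the reference is a mean of as many lists, this share was 64.8% to 66.6% in the mutant, and 69.9% to 71.3% for single wild-type lists. Shifts over 20 bp were seen at 6.75% to 7.08% of nucleosomes in the mutant, and at 6.20% to 6.45% in wild-type lists.

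Spacing asked whether neighbours were closer or further apart. Median distances in the mutant were 243 bp from -1 to +1, 169 bp from +1 to +2, 165 bp from +2 to +3, 164 bp from +3 to +4 and 162 bp from +4 to +5. In WT1, WT2 and WT3 the same distances were 243, 241 and 242 bp, then 168 bp in all, then 165, 166 and 165 bp, then 165, 165 and 164 bp, and 163 bp in all. The median difference per gene was 1.0 bp from -1 to +1 and from +1 to +2 (exact permutation p = 0.25 at each, the smallest possible), 0 bp from +2 to +3, and -0.667 bp at both later steps (exact p = 0.5).

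In limma, the distance from +1 to +2 was called at 2 of 2072 genes (0.0965% called), 1 higher and 1 lower (0.0483% each). In RPS14B, a ribosomal protein gene, it was 152 bp in the mutant, against 218, 219 and 217 bp (adjusted p = 0.0313). In YLR225C it was 248 bp, against 189, 189 and 188 bp (adjusted p = 0.0313). From +2 to +3, 2 of 1992 genes were called (0.1%), 1 higher and 1 lower (0.0502% each). These were YHR214W with 97 bp in the mutant against 149, 148 and 150 bp, and YHR218W with 239 bp against 185, 186 and 184 bp (adjusted p = 0.0497 each). Both are subtelomeric reading frames, where reads from repeated sequence make the values uncertain. From +3 to +4, 3 of 1902 genes were called (0.158%). PRE1 had 240 bp in the mutant, against 164, 168 and 166 bp (adjusted p = 0.0327). YER138C and YER137C-A, which share their nucleosomes, had 216 bp against 153, 152 and 156 bp. They are reading frames of a Ty retrotransposon, a repeated sequence, so these values are uncertain too. From -1 to +1 and from +4 to +5, 0 of 2167 and 0 of 1713 genes were called (0% each), with 136 and 111 at an unadjusted p under 0.05. All of these spacing calls were lost when any 1 wild-type list was left out. The PRE1 and YLR225C distances end at the +4 and +1 summits given above as not called for position, so they are not separate findings. Adjustment here ran over the genes of each step, not over all tested nucleosomes. A small p again favours genes where the wild-type lists lie close together.

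Fuzziness, the standard deviation of read positions within a nucleosome, describes how loosely a nucleosome is placed. Its median over the kept entries was 32.3 bp in Ioc3-Q251K/D252K, against 31.9, 31.5 and 31.9 bp in WT1, WT2 and WT3. The mutant list was slightly fuzzier as a whole, with a median difference of 0.319 bp over all tested nucleosomes. WT1, WT2 and WT3 set against the other wild-type lists had 0.032, -0.281 and 0.228 bp. Within genes the mutant difference, before centring, was largest at +5 and below 0 at +1. Median differences were -0.219 bp (+1), 0.362 bp (+3), 0.528 bp (+4), 0.730 bp (+5) and 0.417 bp (+10). Each list was also centred by its median difference from the mean of the 4 lists. The mutant medians were then -0.540 bp (+1), 0.041 bp (+3), 0.207 bp (+4), 0.409 bp (+5) and 0.097 bp (+10, exact permutation p = 0.75). So relative to the list as a whole +3 and +10 differed little, and the lower fuzziness at +1 was larger in size than the rise at +5. At +5 the nucleosome was fuzzier at 63.3% of genes in the mutant, against 53.0%, 42.1% and 55.0% in WT1, WT2 and WT3 set against the other wild-type lists. The wild-type medians at +5 were 0.158, -0.432 and 0.287 bp, all below the mutant (exact permutation p = 0.25, the smallest possible, and 0.545 after adjustment over 12 numbers).

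**Figure D2:**
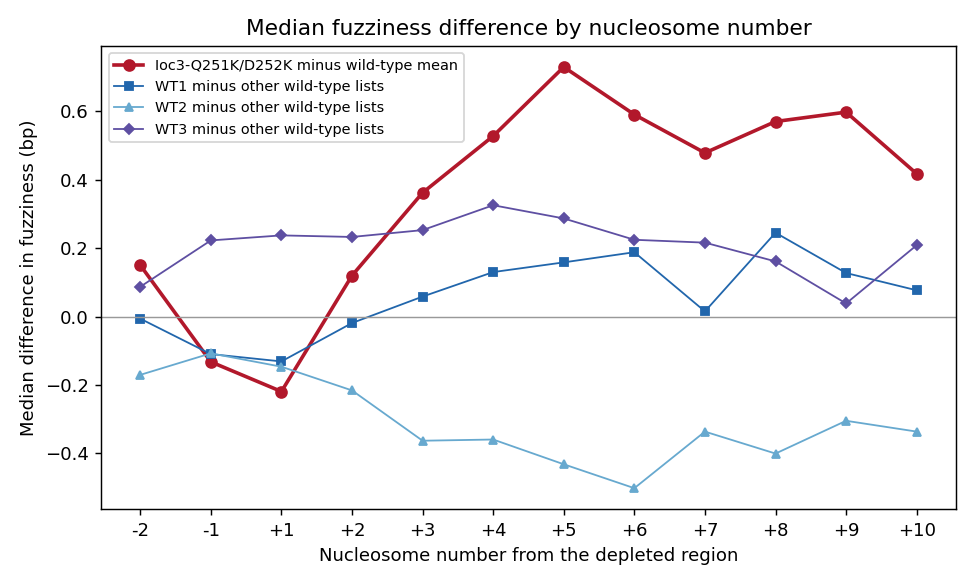
Median difference in fuzziness in bp (y axis) by nucleosome number (x axis), with Ioc3-Q251K/D252K minus the wild-type mean in red and each wild-type list minus the other wild-type lists in blue and purple. The mutant median is -0.219 bp at +1 and 0.730 bp at +5, where it lies above all 3 wild-type lists.

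For fuzziness limma called 2 of 68976 nucleosomes (0.0029% called), both lower and both on few reads; 4427 had an unadjusted p under 0.05. The -1 nucleosome of the ribosomal protein gene RPL13B had a standard deviation of 2.50 bp in the mutant, against 39.6, 46.0 and 37.7 bp (adjusted p = 0.00871), but held 2 reads there, against 4, 6 and 8. A nucleosome at 627270 on chromosome XIV, near RLP7 and DOM34, had 20.6 bp in the mutant, against 39.6, 38.0 and 39.5 bp (adjusted p = 0.0469), with 8 reads against 12, 11 and 12. That site was named after its values had been seen. In fits against 2 wild-type lists, the mutant gave 5, 138 and 59 fuzziness calls (without WT1, WT2 and WT3), and WT1, WT2 and WT3 gave 31, 187 and 72.

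Peak height, the signal of the authors' track at the summit, and assigned reads asked how strongly each nucleosome was protected. At -1 and +1 both were higher in Ioc3-Q251K/D252K, and from +5 on both were slightly lower. The median log2 difference in peak height was 0.079 at -2, 0.19 at -1, 0.16 at +1 and 0.060 at +2, and from -0.047 to -0.034 between +5 and +9. With peak height as deposited, not divided by the list median, it was 0.026 at -2, 0.13 at -1, 0.11 at +1, 0.0068 at +2 (exact permutation p = 1, with WT1 and WT2 above the mutant) and from -0.100 to -0.088 between +5 and +9. At -1, peak height was higher at 84.0% of genes in the mutant, and at 73.5%, 32.2% and 41.8% of genes in WT1, WT2 and WT3 set against the other wild-type lists. WT1 moved the same way as the mutant, with medians of 0.12 at -1 and 0.11 at +1, against -0.074 and -0.064 in WT2 and -0.032 and -0.034 in WT3. The mutant lay above WT1 at both numbers (exact permutation p = 0.25, the smallest possible, and 0.333 after adjustment). Whether MNase digestion, which the labels do not give per list, had a part in this was not tested.

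**Figure D3:**
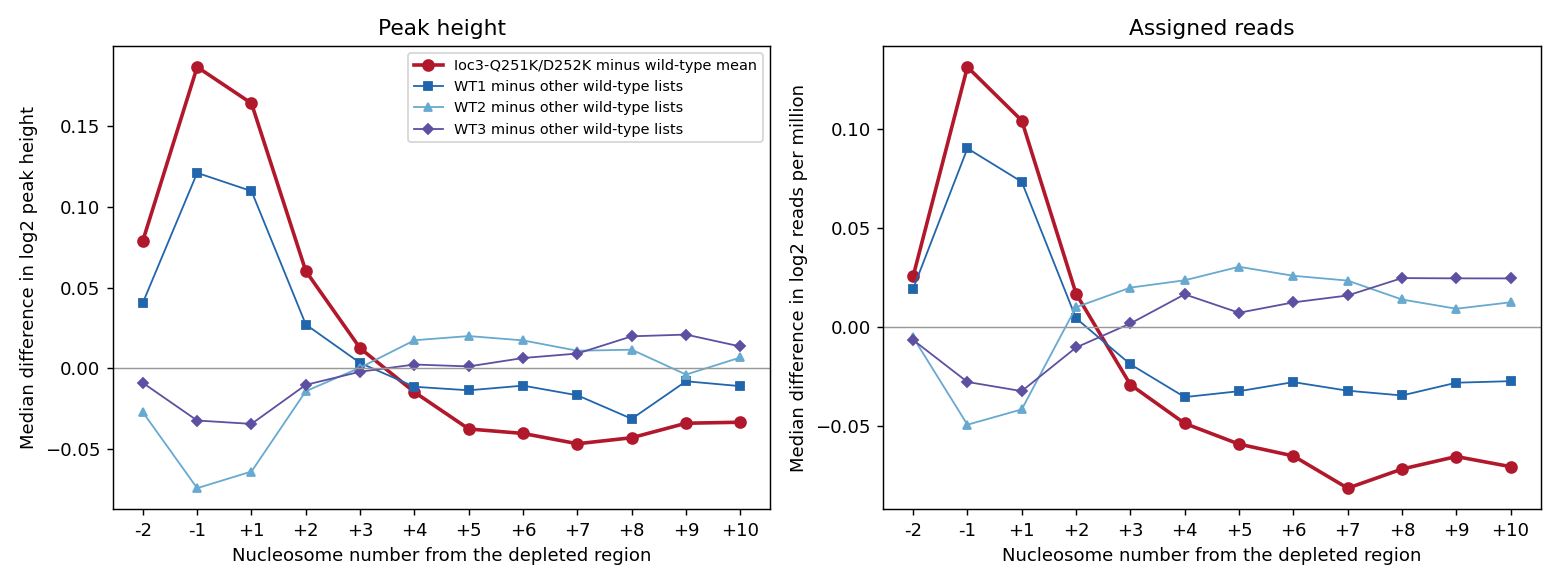
Median log2 difference in peak height (left) and in depth-scaled reads (right) by nucleosome number, with Ioc3-Q251K/D252K minus the wild-type mean in red and each wild-type list minus the other wild-type lists in blue and purple. Mutant and WT1 both peak at -1 in peak height, at 0.19 and 0.12, and both are below 0 from +4 on.

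For single nucleosomes limma called peak height at 18 of 68976 (0.0261% called), 13 higher (0.0188%) and 5 lower (0.00725%) in the mutant. Of these, 14 lay within 500 bp before a start codon (0.153% called there), where 13.3% of the tested nucleosomes lie. The count is not stable: it was 546 without WT1, 152 without WT2 and 193 without WT3, and WT1, WT2 and WT3 against the other wild-type lists gave 55, 113 and 105. A nucleosome between ARB1, an ATPase of ribosome biogenesis, and PHM8 is +1 of the first and -1 of the second (chromosome V, 225408). Its peak height was 0.397 in the mutant, against 0.142, 0.116 and 0.136, and its reads were 37, against 14, 8 and 10. Both passed their tests, with a log2 difference of 1.66 in peak height (limma adjusted p = 0.0288) and of 1.80 in reads (edgeR adjusted p = 0.0192).

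DBP2, the gene of a DEAD-box RNA helicase, changed in both directions. Its +5 nucleosome had a peak height of 0.411 in the mutant, against 1.18, 1.09 and 1.14, and 54 reads, against 113, 107 and 106. Its +1 nucleosome had a peak height of 0.185, against 0.0686, 0.0711 and 0.0782, on 16 reads against 5, 5 and 5. The first was called by both measures (adjusted p = 0.0288 for peak height in limma and 0.00252 for reads in edgeR), the second by peak height only (adjusted p = 0.0288).

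Other calls in peak height were the -1 nucleosome of CAP1, which encodes a subunit of the actin capping protein (0.437 in the mutant, against 0.192, 0.186 and 0.193), and the -2 nucleosome of the hexokinase gene HXK2 (0.809, against 0.315, 0.327 and 0.364). HXK2 also rose in reads, with 63 in the mutant against 26, 32 and 33 (edgeR adjusted p = 0.0473). YAP1801, a clathrin assembly gene, fell at -2 in both measures, on 4 reads in the mutant against 31, 26 and 14 (edgeR adjusted p = 0.0380). The remaining called sites held 1 to 24 reads in the mutant, apart from 2 in the chromosome VII stretch described below.

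Reads were tested with edgeR's quasi-likelihood test, and 890 of 68936 nucleosomes were called (1.29% called), 648 higher (0.94%) and 242 lower (0.351%) in Ioc3-Q251K/D252K, with 8778 at an unadjusted p under 0.05. This count depends on which lists and tool are used. It was 1592 without WT1, 0 without WT2 and 239 without WT3, and DESeq2 called 7 (0.0101%), all of them among the 890. WT1, WT2 and WT3 against the other wild-type lists gave 10, 0 and 0 calls in edgeR. Every edgeR read call named here is lost without WT2. Among the called nucleosomes the median fold was 1.47 for the higher and 0.677 for the lower.

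Sorted by place, a division made after the calls were seen, the higher calls lay mostly outside coding regions. Within 500 bp before a start codon, 306 of 9160 nucleosomes were higher and 7 lower. In other noncoding DNA, 214 of 7051 were higher and 7 lower. In coding regions, 128 of 52765 were higher and 228 lower. Thus 80.2% of the higher calls lay outside coding regions, which hold 23.5% of the tested nucleosomes. By number, 75 of 2196 nucleosomes at -1 and 50 of 2214 at +1 were called higher.

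The same pattern was seen in the medians over all nucleosomes of a place. The median log2 difference in assigned reads, scaled to each list's total, was 0.14 before start codons in the mutant, against 0.083, -0.036 and -0.037 in WT1, WT2 and WT3 set against the other wild-type lists. In other noncoding DNA it was 0.11 in the mutant, against 0.066, -0.030 and -0.028. In coding regions it was -0.048, against -0.022, 0.017 and 0.0099. WT1 lay on the mutant's side of 0 in all 3 places, at a smaller value.

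**Figure D4:**
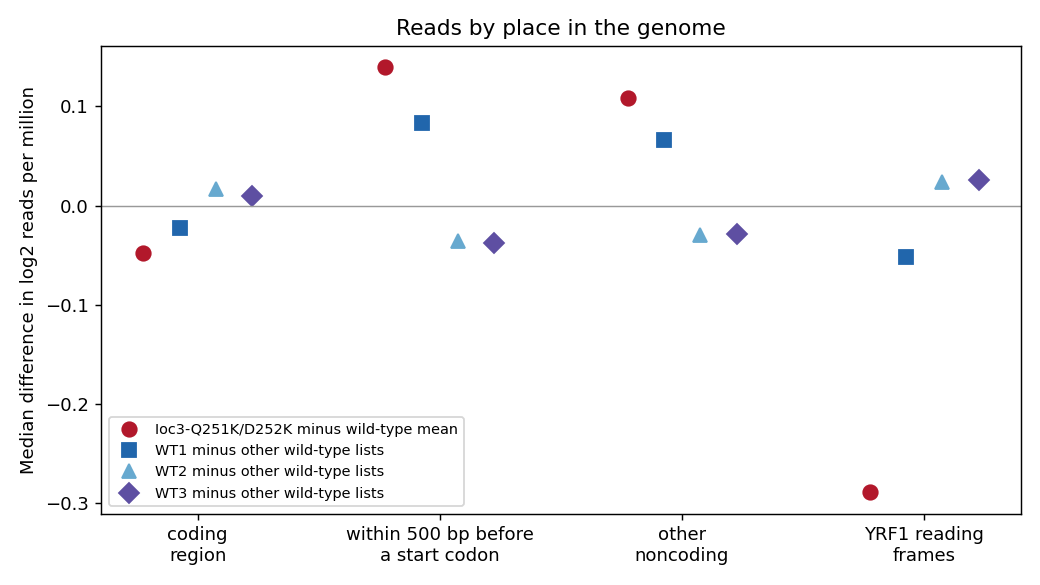
Median log2 difference in depth-scaled reads (y axis) in 4 places of the genome (x axis), with Ioc3-Q251K/D252K minus the wild-type mean as red circles and each wild-type list minus the other wild-type lists in blue and purple. The mutant is highest before start codons, at 0.14, and lowest in YRF1 reading frames, at -0.29.

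Genes with called -1 nucleosomes included HSM3, which encodes a proteasome assembly chaperone (123 reads in the mutant, against 80, 52 and 50; edgeR adjusted p = 0.000498). ORC4, a subunit gene of the origin recognition complex, had 98 reads at -1, against 51 in each wild-type list (edgeR adjusted p = 0.00784). DAP1, a heme-binding protein gene, had 69 reads at -1, against 28, 34 and 36. KIP2, a kinesin gene, had 74 reads at -1, against 42, 36 and 30. At +1 of PTR3, an amino acid sensing gene, 51 reads stood against 30, 15 and 18. In all 5 the mutant lay above every wild-type list, which was a condition for being named here. WT1 was the highest wild-type list at HSM3, KIP2 and PTR3.

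Of the 242 lower calls, 125 lay within 20 kb of a chromosome end, where 3670 of the tested nucleosomes lie (5.32%). Another 31 nucleosomes there were called higher. The YRF1 genes, which encode helicases in the repeated Y' elements beside telomeres, held 53 calls among 247 nucleosomes, all lower (21.5% called). Over all nucleosomes 0.351% were called lower. At YRF1-7 a coding nucleosome (chromosome XVI, 4215) had 71 reads in the mutant, against 150, 152 and 152 (edgeR adjusted p = 3.22e-06). At YRF1-2 (chromosome V, 576206) there were 91 reads, against 176, 188 and 166 (edgeR adjusted p = 4.50e-06). YML133C (chromosome XIII, 3916) had 108 reads, against 215, 215 and 226, YRF1-8 had 106, against 181, 201 and 223, and YEL077C had 68, against 121, 122 and 155. The YRF1 genes are near-identical copies, so reads can be split among them and no single copy can be singled out. Over all YRF1 frames the lists held 42511 reads in the mutant, against 51081, 52880 and 52887.

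The longest run of called neighbours was 8 nucleosomes on chromosome VII, from 567496 to 568738, in noncoding DNA on the start codon side of YGR038C-B and YGR038C-A, with the first summit 29 bp before both reading frames (strand read from the systematic names). The run was picked after its values were seen. It held 2561 reads in Ioc3-Q251K/D252K, against 1404, 1242 and 1204 in WT1, WT2 and WT3, and the median fold was 1.97. The largest single fold was 2.71, at a nucleosome with 221 reads in the mutant, against 108, 74 and 66. All 8 passed edgeR (adjusted p from 4.40e-26 to 0.00224), and 6 of the 7 DESeq2 calls lay here. Outside the run, the 3 tested nucleosomes on each side were not called (edgeR adjusted p from 0.333 to 0.976), and the nearest had 202 and 185 reads in the mutant, against 179, 190 and 191 and against 171, 197 and 180. YGR038C-B and YGR038C-A are reading frames of a Ty retrotransposon, a repeated sequence. Whether reads of repeated sequence enter this stretch was not tested, so its values are uncertain.

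**Figure D5:**
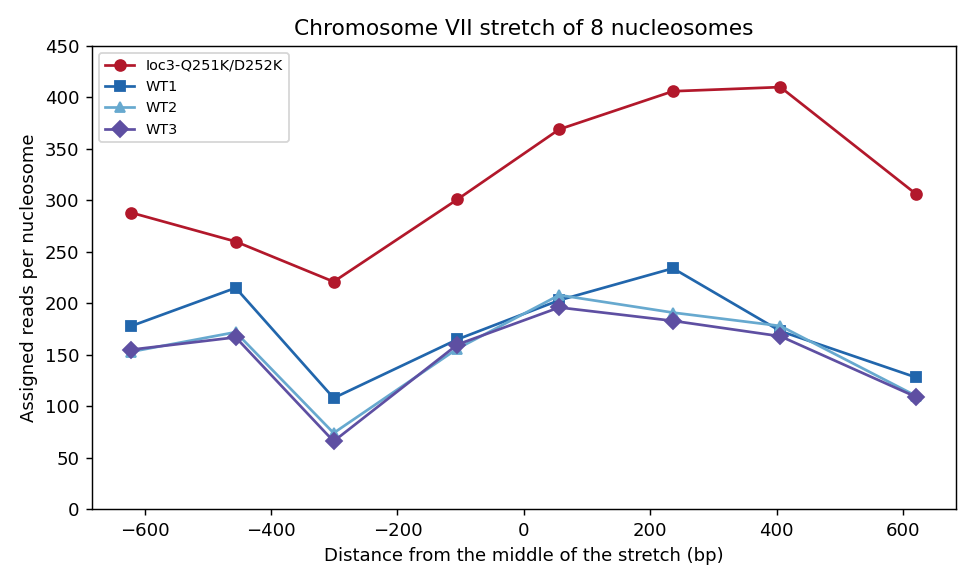
Assigned reads per nucleosome (y axis) against distance in bp from the middle of the chromosome VII stretch (x axis) for Ioc3-Q251K/D252K (red) and WT1, WT2 and WT3 (blue and purple). Each of the 8 nucleosomes is highest in the mutant, with 221 to 410 reads there.

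Gene lists were described by their counts in reads. Of 771 nucleosomes of cytosolic ribosomal protein genes, 4 were higher and 1 lower, and of 1089 of ribosome biogenesis genes 2 were higher and 7 lower. Glycolysis and fermentation genes had 3 higher and 2 lower of 290, and phosphate regulon genes 2 higher and 0 lower of 246. Respiration and TCA cycle genes (256 nucleosomes), histone genes (36), the ISWI, CHD1 and INO80 remodelers (288) and general regulatory factors (106) had 0 calls in either direction in reads. These counts stand beside the 1.29% called over all nucleosomes. Within the lists, the +1 nucleosome of KSS1, a mating pathway kinase, rose to 235 reads, against 182, 152 and 157, and the -1 nucleosome of TDH3, a glycolytic enzyme gene, had 89 against 52, 50 and 48. SUC2, the invertase gene, had 143 reads at -1, against 88, 88 and 84, and 117 at +7, against 171, 181 and 167. SAM1, an S-adenosylmethionine synthetase gene, had 108 reads at +7, against 158, 165 and 162. TDH3 and SAM1 have close paralogs, so their reads are uncertain.

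Genes linked to ISWI remodeling or nucleosome positioning in yeast were looked at whatever their result. PHO8 (12 entries in the mutant and in each wild-type list), PHO5, MET16, GAL1, ISW1 and IOC3 held 0 position calls, and their largest shifts were 20.7, 38.0, 5.0, 8.33, 15.0 and 16.7 bp. The +1 nucleosome of PHO8 lay 31 bp before the start codon in the mutant, against 30, 40 and 39 bp before it in WT1, WT2 and WT3. HTA1 lies in the left-out segment.

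Entries with no partner in the other lists were counted apart, since they cannot enter the tests. In Ioc3-Q251K/D252K 979 entries (1.29% of its entries) had none in the wild-type lists. For WT1, WT2 and WT3, 758, 680 and 769 entries had none in the other lists (1.01%, 0.906% and 1.02%). In turn 824 places were occupied in all wild-type lists and empty in the mutant, against 811, 905 and 899 places missing from WT1, WT2 or WT3 only. Of the 979, 524 lay in coding regions, where 76.5% of the tested nucleosomes lie. Another 276 lay within 500 bp before a start codon and 179 elsewhere. Median reads were 105 in coding regions, 28 before start codons and 67 elsewhere, against 134 over all mutant entries.

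The Ioc3-R739E/R742E and Ioc3-KO lists share the wild-type lists as their reference, so their values are given side by side. At +2, over 2115 genes, the median shift was 1.33 bp in Ioc3-Q251K/D252K, 1.67 bp in Ioc3-R739E/R742E and 2.67 bp in Ioc3-KO. At +10 it was -2.0, -2.33 and -4.0 bp in the same order, and fuzziness at +5 was higher by 0.730, 1.00 and 2.25 bp. Peak height at -1 differed from wild type by 0.18, 0.11 and 0.24 on the log2 scale. Tested directly, Ioc3-Q251K/D252K minus Ioc3-R739E/R742E gave 0 position, 6 fuzziness and 9 peak height calls of 67728 nucleosomes (0%, 0.00886% and 0.0133%) in limma and 27 read calls (0.0399%) in edgeR. Ioc3-Q251K/D252K minus Ioc3-KO gave 0, 2 and 8 in limma (0%, 0.00295% and 0.0118%) and 32 in edgeR (0.0472%). For position, 4876 and 7693 nucleosomes had an unadjusted p under 0.05 in these 2 contrasts. Each contrast sets 1 list against 1 list, and their spread is that of the wild-type lists.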

How the data were processed

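Per the submitters' processing notes, Trimmomatic, Bowtie2, SAMtools and sacCer3 were used, without versions. The nucleosome caller is not given in the sources used here. Per the file headers, each deposited list gives a summit position in bp, the spread of read positions around it in bp, a peak height (signal of the authors' track, scale not stated) and a whole-number read count. The totals of the deposited counts are nearly equal, and whether they were brought to a common depth is not stated. The edgeR fits of reads took their spread from the wild-type lists. The reads carry no molecular identifiers.

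Lists were matched, and genes numbered from the widest gap of at least 200 bp between consensus summits (Gaussian SD 20 bp, at least 100 bp apart) whose middle lay from -400 to 50 bp from the start codon. Coding regions came from the RefSeq R64 gene table, with strand read from the systematic name. Position, fuzziness and log2 peak height over the list median were fitted with limma 3.58.1 (lmFit, eBayes), and read counts with edgeR 4.0.16 (TMM, filterByExpr, quasi-likelihood) or, as an alternative, DESeq2 1.42.0. Medians of log2 reads used counts plus 0.5. All were adjusted by Benjamini-Hochberg at 0.05. Fits ran in R 4.3.3; matching and summaries ran in Python 3.11.15 (pandas 2.3.3, scipy 1.17.1, numpy 2.4.6, matplotlib 3.10.9). The fits have 2 residual degrees of freedom, 1 where a wild-type list is left out, and the lone mutant list is assumed to vary like wild type.

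The fits were tested on simulated data with 2 ways of drawing the spread. The first gave limma more false calls than its threshold allows for fuzziness and peak height. The simulation, not the fit, was then changed to draw the spread from limma's own prior, under which false calls fell but no simulated position shift was recovered. So the limma calls may hold more false ones than stated, and position calls have little power.

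Named were, per measure, up to 6 called nucleosomes in each direction (at least 3 of smallest p where fewer were called) that lay in a coding region or at -1 to +5 and outside the wild-type range, up to 2 of each gene list, those called by 2 measures, and 7 fixed genes; the text gives a part of them. The members and lists were chosen with earlier results of these data known. Also chosen after values were seen were the place, chromosome end, YRF1 and length classes, the runs, the wild-type and Ioc3 contrasts and the medians treated as main results.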

Additional observations from a re-analysis of the deposited data

Results flagged for a closer look

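In the chromosome IV segment from 880000 to 988000, which was left out of every comparison, the Ioc3-Q251K/D252K list held 162699 reads, against 93701, 95712 and 95923 in WT1, WT2 and WT3, or 1.71 times the wild-type mean. The segment had 687 entries in the mutant, against 687, 683 and 689, so the entries there held more reads each. The Ioc3-R739E/R742E and Ioc3-KO lists held 94930 and 96494 reads in it. Mitochondrial entries, also outside the comparisons, held 3047 reads in Ioc3-Q251K/D252K, against 1718, 1330 and 1268 in WT1, WT2 and WT3, or 2.12 times the wild-type mean. Ioc3-R739E/R742E held 2149 and Ioc3-KO 2873. Both were noted because they stood above the wild-type lists in data that no comparison used, and neither was tested.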

How the results depend on the processing

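No paired analysis was possible because both replicates of a group are pooled in 1 list. Position calls stayed at 0 in every alternative run, with 4839 to 7238 at an unadjusted p under 0.05. Fuzziness calls were 2, and became 5 with a 50 bp matching limit, 25 with robust eBayes, 0 without the quartile of lowest peak height, and 5 to 138 with 1 wild-type list left out. Peak height calls were 18, and became 381 with the chromosome IV segment kept, 429 without the quartile of lowest peak height, 95 with robust eBayes, 667 with a trend in the prior variance, and 152 to 546 with 1 wild-type list left out. Read calls were 890, and became 7 with DESeq2, 1796 with the segment kept, and 0 to 1592 with 1 wild-type list left out. Spacing calls from +1 to +2 were 2, and 0 by mean read position. From +2 to +3 they were 2, and 4 by mean read position. Those from +1 to +2, +2 to +3 and +3 to +4 were 0 without any 1 wild-type list. The share of mutant entries without a partner was 1.29%, 2.53% with a 50 bp limit and 7.59% among entries with at least the median reads of their list. In WT1, WT2 and WT3 it was 1.84%, 1.77% and 1.86% with the 50 bp limit. Among entries with at least the median reads, it was 3.85%, 5.01% and 4.85% in these lists. The medians at +2 and +3 (shift), +5 (fuzziness), -1 and +1 (peak height) moved by less than the spread between wild-type lists under each alternative run for them. Of the other values, 152 stayed and 22 moved. The sign changed for median fuzziness at -2 (0.15 bp, and -0.17 bp centred per list) and +2 (0.12 and -0.20 bp), and for log2 peak height at +3 (0.012, and -0.041 as deposited). The cause of these changes was not tested. With 1 list per mutant, the spread between mutant cultures limits every statement here.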
